A study of Mus musculus with 18 samples.

Results

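Collagens are the most abundant proteins of the extracellular matrix, and their mRNAs were measured here in 18 tumours grown in mice from PB2 mouse breast cancer cells. The rule took every protein-coding gene of the count table whose symbol has the form Col, digits, a, digits, without Col7a1 and Col17a1. It found 42 genes of 54532, namely 11 fibrillar collagens, 6 chains of type IV collagen, the collagen of basement membranes, and 25 others. The tumours compared were 10 labelled PB2-EV, with the genotype EV, and 8 labelled PB2-p95HER2, with the genotype p95HER2, a shortened HER2 receptor that lacks most of the extracellular domain. All of these mice received the doxycycline diet DOX625, so that no group without doxycycline is analysed here. The labels give no age, sex, strain or batch, do not spell out EV, and give no number of mice behind the tumours of a group. The p-values therefore rest on the spread between these samples, which may be partly technical. Tumour cells and host cells are both of mouse origin, and their collagen mRNA cannot be told apart in these counts.

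A collagen is built from 3 chains wound around each other, and each Col gene encodes a chain. The fibrillar collagens of types I, III and V form the tensile fibrils of connective tissue and are made chiefly by fibroblasts, whereas types II and XI form the fibrils of cartilage. Type IV collagen makes the sheet-like network under epithelia and around vessels. Among the others, type VI forms beaded filaments, the fibril-associated collagens with interrupted triple helices (FACITs, such as types IX, XII and XIV) sit on the surface of fibrils, and the multiplexins of types XV and XVIII belong to basement membrane zones.

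The start sites of Col4a1, Col4a2, Col9a1 and Col18a1 are shown here. Col4a1 and Col4a2, which encode the chains of the main type IV trimer, lie head to head on chromosome 8 (ENSMUSG00000031502, chromosome 8, 11198423 to 11312826, minus strand, mm10 and ENSMUSG00000031503, chromosome 8, 11312805 to 11449287, plus strand, mm10). In RefSeq (GRCm38.p6, the same build) their first exons overlap by 22 bases, shown in capitals on the plus strand at chr8:11312801-11312830, where Col4a2 starts at the first capital and Col4a1 at the last, running the other way.
Col4a2 and Col4a1 starts: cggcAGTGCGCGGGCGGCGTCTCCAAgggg

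Col9a1 and Col18a1, the members with the smallest adjusted p between the genotypes, each have 2 start sites in RefSeq, and a count per gene adds up the transcripts of both. The 250 bases before each start are shown 5′ to 3′, with capitals for matches to 5 motifs on either strand: ACAAAG and ACAATG (the core bound by SOX factors), TGANTCA (AP-1), GGGCGG (Sp1) and CCAAT. The Col9a1 windows are chr1:24177360-24177609, plus strand, and chr1:24194953-24195202, plus strand. The Col18a1 windows are chr10:77166531-77166780, minus strand, and chr10:77113706-77113955, minus strand.
Col9a1 start 1: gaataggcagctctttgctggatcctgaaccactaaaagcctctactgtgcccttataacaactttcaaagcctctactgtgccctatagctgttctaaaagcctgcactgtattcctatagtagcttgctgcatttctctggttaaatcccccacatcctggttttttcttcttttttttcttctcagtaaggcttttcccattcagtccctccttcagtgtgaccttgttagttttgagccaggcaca
Col9a1 start 2: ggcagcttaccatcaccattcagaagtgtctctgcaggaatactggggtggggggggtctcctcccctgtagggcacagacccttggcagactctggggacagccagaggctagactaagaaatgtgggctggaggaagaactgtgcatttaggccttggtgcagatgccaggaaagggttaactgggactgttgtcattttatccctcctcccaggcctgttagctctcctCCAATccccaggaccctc
Col18a1 start 1: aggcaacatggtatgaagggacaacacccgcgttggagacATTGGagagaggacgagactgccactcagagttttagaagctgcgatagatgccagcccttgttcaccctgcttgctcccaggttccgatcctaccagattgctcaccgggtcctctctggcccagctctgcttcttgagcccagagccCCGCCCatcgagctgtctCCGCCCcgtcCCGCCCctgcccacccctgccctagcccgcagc
Col18a1 start 2: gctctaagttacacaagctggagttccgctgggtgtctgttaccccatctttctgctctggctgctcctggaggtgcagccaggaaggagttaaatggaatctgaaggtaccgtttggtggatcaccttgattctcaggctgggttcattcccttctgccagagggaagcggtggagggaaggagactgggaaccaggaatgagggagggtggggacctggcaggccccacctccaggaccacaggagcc

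The first Col18a1 window held 3 GGGCGG matches and 1 CCAAT match, the second Col9a1 window 1 CCAAT match, and no match overlapped another. The other windows held none of the 5 motifs. Of 32851 RefSeq promoter windows of the same length, 32.7% held GGGCGG, 33.8% CCAAT, 16.5% ACAAAG, 10.7% ACAATG and 6.75% TGANTCA. Windows were found for 33 of the 42 collagen genes, 36 windows in all, of which 58.3% held GGGCGG, 30.6% CCAAT, 11.1% ACAAAG, 2.78% ACAATG and 2.78% TGANTCA. These are letters in a window and not sites of binding.

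Collagen mRNA made up 0.480 ± 0.100% of counts in EV tumours (SD, n = 10) and 0.443 ± 0.0826% in p95HER2 tumours (SD, n = 8). Fibrillar collagens held most of it, 0.185 to 0.434% of counts in EV and 0.200 to 0.383% in p95HER2 tumours. Levels between genes were compared per length, in TPM, counts divided by the exon length of the gene and scaled to a fixed sum per library. Other values are CPM, counts scaled to a fixed library size. In EV tumours Col1a1 was at 457 ± 138 TPM, followed by Col3a1 at 209.7 ± 67.8, Col1a2 at 163 ± 48.0 and Col2a1 at 159.5 ± 56.1 TPM. Every gene in this order overlapped in range with its neighbour over the 10 EV tumours. With the longest transcript as the length, Col1a2 was at 287 and Col3a1 at 280.3 TPM, and their order turned.

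Collagens typical of cartilage were among the most abundant, although these are breast tumours by their label. Col2a1 and the 3 type IX genes Col9a1, Col9a3 and Col9a2 ranked within the 10 highest of 42 collagen genes by exon length (Col9a2 was 10th, and 12th by the longest transcript), with 118 ± 15.4 TPM for Col9a1, 106 ± 13.2 for Col9a3 and 53.2 ± 14.5 for Col9a2 in EV tumours. The marker list for cartilage and bone was only partly present. Sox9, which encodes a transcription factor that switches on cartilage collagens and is also found in mammary epithelium, was at 641 ± 97.5 CPM in EV tumours, whereas Acan, encoding the cartilage proteoglycan aggrecan, was at 0.638 ± 0.454 CPM. Dmp1 was at 66.7 ± 11.5, Comp at 29.1 ± 13.9, Runx2 at 11.6 ± 1.60 and Bglap at 0.877 ± 0.503 CPM. Matn1, Matn3, Hapln1, Sp7 and Ibsp, 5 of the 11 markers, did not pass the filter on low counts.

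**Figure D1:**
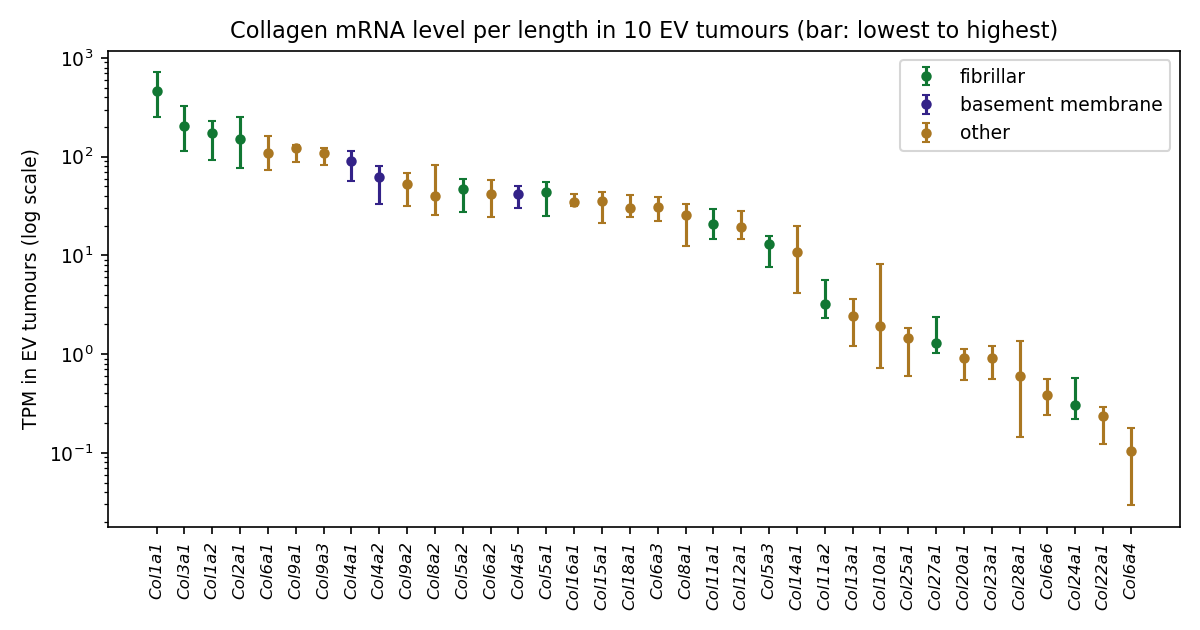
Level of the 36 collagen genes with the highest mean in EV tumours, in TPM on a log axis, with the median (point) and the lowest to highest value (bar) of 10 tumours, coloured by class. Fibrillar genes lead with Col1a1, and Col9a1 and Col9a3 lie close to Col4a1.

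The design sets p95HER2 against EV tumours. In all, 3 collagen genes were higher in p95HER2 tumours and none was lower: Col9a1, Col18a1 and Col20a1, all of them outside the fibrillar and type IV classes. Of 42 collagen genes 36 passed the filter on low counts and were tested, and the 3 called are 8.33% of these. Over all 17123 genes tested 10.2% were called, 5.73% higher and 4.45% lower (edgeR quasi-likelihood test, BH-adjusted p under 0.05), so the share of collagens called is near that of all genes. Before adjustment 10 collagen genes had p under 0.05, 7 higher and 3 lower, against 26.3% of all genes. The log2 fold change, given throughout as p95HER2 minus EV, was negative for 24 of the 36, with a median of -0.10. Over all genes tested it was negative for 52.3%, with a median of -0.0074. DESeq2 called 4 collagen genes higher and none lower, and limma voom with quality weights 2 higher and 2 lower.

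**Figure D2:**
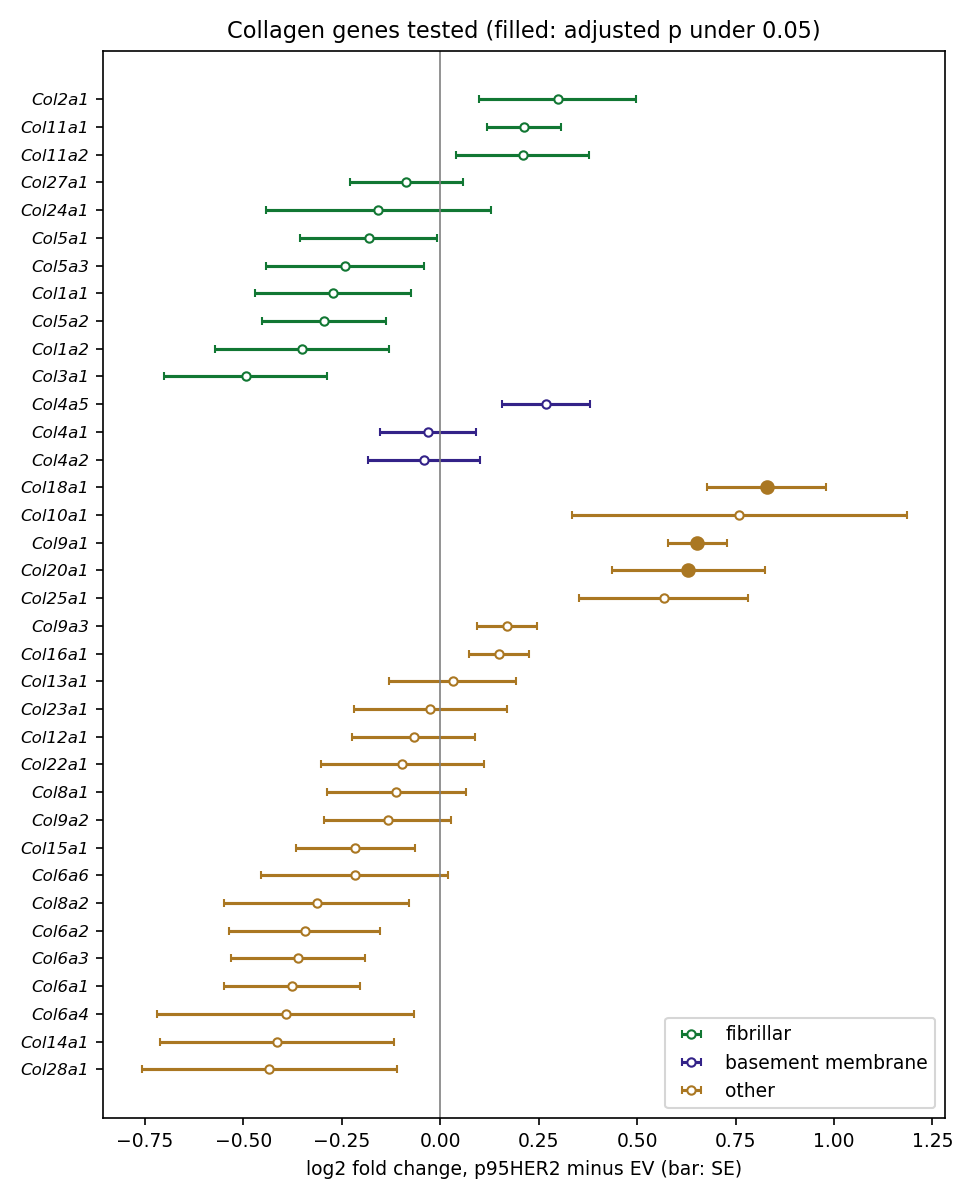
Log2 fold change (p95HER2 minus EV) of the 36 collagen genes tested, with its SE as a bar, by class; filled points had an edgeR adjusted p under 0.05. Filled points are Col18a1, Col9a1 and Col20a1, all above 0, and the fibrillar genes of types I, III and V lie below 0 unfilled.

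Among the fibrillar collagens no gene was called by edgeR (0 of 11 higher and 0 of 11 lower), and DESeq2 and limma voom called none. Before adjustment 1 had an edgeR p under 0.05 above 0 and 1 below it, against 26.3% of all genes tested. Col1a1, which encodes the more abundant chain of type I collagen (ENSMUSG00000001506, chromosome 11, 94936224 to 94953042, plus strand, mm10), was at 553, 949.5 and 1516 CPM in EV tumours (lowest, median and highest, n = 10) and 522, 759.9 and 1272 CPM in p95HER2 tumours (n = 8). EV 9 and p95HER2 6 were the highest of their groups, and the groups overlapped almost entirely. Its log2 fold change was -0.27 with an SE of 0.20 (edgeR, adjusted p = 0.413). Col1a2, which encodes the other chain of type I collagen, was at 375, 675 and 911 CPM in the EV group and 303, 481 and 842 in the p95HER2 group, with a log2 fold change of -0.35 with an SE of 0.22 (edgeR, adjusted p = 0.331). Col3a1, whose product joins type I in the fibrils of soft tissue, was at 359, 617 and 972 CPM in the EV group and 267, 497 and 653 in the p95HER2 group. Its fold change, -0.49 with an SE of 0.21 (edgeR, adjusted p = 0.136), was the lowest of all collagen genes tested, and 7 of 8 p95HER2 tumours lay below the EV median. The same count below the EV median held for Col1a1 and Col1a2, and all 3 overlapped between the groups. Fibroblast marker levels, given further on, varied with Col1a1 from tumour to tumour, and with the fibroblast level as a covariate the log2 fold changes moved to -0.0017 for Col1a1, -0.066 for Col1a2 and -0.21 for Col3a1 (edgeR adjusted p = 0.994, 0.671 and 0.182). Adjusting for muscle markers instead gave -0.087, -0.20 and -0.34. The fibroblast markers include matrix genes themselves (Dcn, Lum, Dpt and Fbln1), and the cause of these shifts was not tested. In such bulk samples, fewer cells of a type and less RNA per cell cannot be told apart.

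Type V collagen regulates the width of type I fibrils. Col5a1 was at 68.5, 116 and 144 CPM in the EV group and 63.5, 94.7 and 159 in the p95HER2 group, and Col5a2 at 86.0, 142 and 181 CPM in the EV group and 73.9, 115 and 146 in the p95HER2 group. Here too the groups overlapped, with log2 fold changes of -0.18 with an SE of 0.17 (edgeR, adjusted p = 0.551) and -0.30 with an SE of 0.16 (edgeR, adjusted p = 0.246). Col5a3 was lower in level (26.8 ± 6.30 CPM in the EV group and 22.6 ± 9.09 in the p95HER2 group) and had a log2 fold change of -0.24 with an SE of 0.20 (edgeR, adjusted p = 0.48). With the fibroblast level as a covariate the 3 fold changes moved to 0.053, -0.092 and -0.019.

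The cartilage fibrillar genes had fold changes of the opposite sign. Col2a1, the chain of type II collagen, was at 228, 436 and 721 CPM in EV tumours (lowest, median and highest, n = 10) and 377, 615 and 684 CPM in p95HER2 tumours (n = 8). In p95HER2 4 it was lowest of its group, and the other 7 of 8 exceeded the EV median. The log2 fold change was 0.30 with an SE of 0.20 (edgeR, adjusted p = 0.369), so it was not called. With the skeletal muscle marker level as a covariate it was called (log2 fold change 0.54, edgeR adjusted p = 0.0288). Muscle marker levels, as the mean log2(CPM + 0.5), were 3.15 to 8.70 in EV and 4.72 to 7.69 in p95HER2 tumours, and their part in the result was not tested beyond this fit. EV 1 and p95HER2 4 had the lowest muscle levels, and the next lowest of their groups were 6.71 and 5.59. Both tumours were low in Col2a1 too. EV 1 had 259 CPM, with only EV 7 lower in its group, and p95HER2 4 had 377 CPM. The muscle fit was not repeated without EV 1 and p95HER2 4, so how far the call rests on them was not tested. Col11a1 and Col11a2, whose chains join type II fibrils, had overlapping groups. Col11a1 was at 59.6, 85.3 and 117 CPM in the EV group and 82.0, 101 and 113 in the p95HER2 group, with a log2 fold change of 0.21 with an SE of 0.095 (edgeR, adjusted p = 0.157). Col11a2 was at 7.72 ± 2.38 CPM in the EV group and 8.92 ± 2.04 in the p95HER2 group, with 0.21 with an SE of 0.17 (edgeR, adjusted p = 0.468). Leaving out EV 6 alone brought Col11a1 past the threshold (log2 fold change 0.27, edgeR adjusted p = 0.0427). The remaining fibrillar genes, Col24a1 and Col27a1, were low, with means of 0.836 and 5.60 CPM in EV tumours, and had edgeR adjusted p = 0.776 and 0.753.

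**Figure D3:**
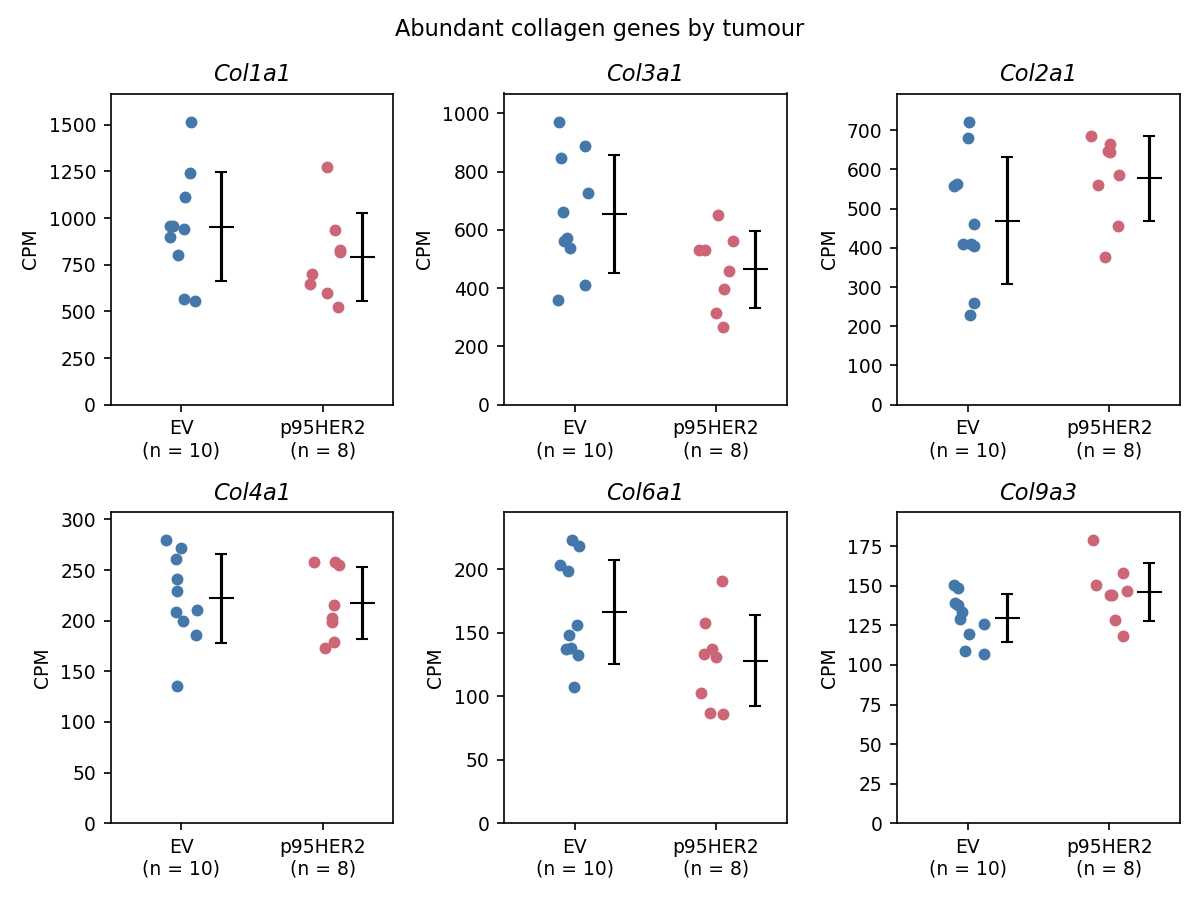
CPM of 6 abundant collagen genes in each tumour (points), by genotype, with mean and SD beside them; each axis starts at 0. The groups overlap in all 6 panels, with Col1a1, Col3a1 and Col6a1 lower and Col2a1 and Col9a3 higher in mean in p95HER2 tumours.

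Type IV collagen did not pass the test in either direction: of 6 genes 3 were tested, and edgeR, DESeq2 and limma voom called none of them. Before adjustment 1 had an edgeR p under 0.05, above 0, against 26.3% of all genes tested. Col4a1 was at 135, 219.6 and 279 CPM in EV tumours (lowest, median and highest, n = 10) and 173, 209 and 258 CPM in p95HER2 tumours (n = 8). EV 4 was the lowest tumour of all, and the medians lay close together. Col4a2 was at 70.0, 134 and 177 CPM in the EV group and 100.1, 130.2 and 159 in the p95HER2 group. The log2 fold changes were -0.031 with an SE of 0.12 (edgeR, adjusted p = 0.908) and -0.042 with an SE of 0.14 (edgeR, adjusted p = 0.893). Genes within 5 Mb of these starts on chromosome 8, 36 with a mean of at least 2 CPM, had a median log2 fold change of -0.13. Of these 9 were called lower and 0 higher, against 4.45% lower and 5.73% higher over all genes tested. Col4a5, which encodes a chain of the minor type IV networks, was at 64.5, 88.7 and 105 CPM in the EV group and 79.2, 102 and 157 in the p95HER2 group, with p95HER2 4 as the highest tumour of all. Its log2 fold change was 0.27 with an SE of 0.11 (edgeR, adjusted p = 0.132). Its partner chains were barely detected: Col4a3, Col4a4 and Col4a6 had 58, 131 and 124 counts over all 18 libraries and did not pass the filter. Col4a3 shares 563 exon bases with a gene on the opposite strand, so its counts are uncertain as well.

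Among the other collagens 3 of 22 tested genes rose (13.6%, against 5.73% of all genes tested), and of these Col20a1 did not hold when single tumours were left out. Col9a1 encodes a chain of type IX collagen, a FACIT on the surface of type II fibrils (ENSMUSG00000026147, chromosome 1, 24177610 to 24252684, plus strand, mm10). It was at 151, 198 and 223 CPM in EV tumours (lowest, median and highest, n = 10) and 252, 293 and 353 CPM in p95HER2 tumours (n = 8). The lowest p95HER2 tumour lay above the highest EV tumour, so the groups did not overlap, which held for 0.677% of all genes tested in the direction higher. The mean rose from 191 ± 24.9 to 299.7 ± 29.7 CPM, a fitted factor of 1.57 and a log2 fold change of 0.65 with an SE of 0.076 (edgeR, adjusted p = 2.09e-05). It was called in every fit run, with an edgeR adjusted p of at most 8.29e-05 when any tumour was left out. Of the 11 markers of cartilage and bone 6 were measured, and Dmp1 alone was called (higher). Their sum ranged from 618 to 908 CPM over the EV tumours and from 811 to 948 CPM over the p95HER2 tumours. Sox9, which is also found in mammary epithelium, made up most of this sum, so the sum mainly follows that gene. Its mean went from 641 to 713 CPM, and it was not called (edgeR adjusted p = 0.221). The part of these markers in the Col9a1 result was not tested. Genes within 5 Mb of Col9a1, 18 with a mean of at least 2 CPM, had a median log2 fold change of 0.084. Of these 3 were called higher and 0 lower, against 5.73% higher and 4.45% lower over all genes tested.

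The partner chains of type IX collagen gave no call. Col9a3 was at 107, 131 and 151 CPM in the EV group and 118, 146 and 179 in the p95HER2 group, and Col9a2 at 31.0, 53.2 and 68.8 CPM in the EV group and 32.3, 47.8 and 63.8 in the p95HER2 group. Both overlapped between the groups, with log2 fold changes of 0.17 with an SE of 0.077 (edgeR, adjusted p = 0.16) and -0.13 with an SE of 0.16 (edgeR, adjusted p = 0.649). The log2 ratio of Col9a1 to Col9a3 counts within a tumour, looked at after these values were seen and so given as a description, was 0.42 to 0.83 in EV and 0.81 to 1.28 in p95HER2 tumours, overlapping at the edge. That of Col9a1 to Col9a2 was 1.55 to 2.48 and 2.17 to 3.33. A ratio of this kind does not depend on how libraries are scaled.

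Col18a1 encodes type XVIII collagen, a heparan sulphate proteoglycan of basement membranes whose end fragment is known as endostatin (ENSMUSG00000001435, chromosome 10, 77052178 to 77166548, minus strand, mm10). It was at 55.5, 67.3 and 95.9 CPM in EV tumours (lowest, median and highest, n = 10) and 86.5, 118 and 195 CPM in p95HER2 tumours (n = 8). The p95HER2 tumour with the highest level was p95HER2 6, all 8 lay above the EV median, and the groups overlapped only between the lowest p95HER2 tumours and the highest EV tumours. Its log2 fold change was 0.83 with an SE of 0.15 (edgeR, adjusted p = 0.00283), a factor of 1.78, and it was called in every fit run, with an edgeR adjusted p of at most 0.0066 when a tumour was left out. Col15a1, the other multiplexin, was at 43.9, 70.3 and 91.6 CPM in the EV group and 43.0, 53.1 and 73.1 in the p95HER2 group and had a log2 fold change of -0.22 with an SE of 0.15 (edgeR, adjusted p = 0.393). As a description chosen after the values were seen, the log2 ratio of Col18a1 to Col15a1 was -0.33 to 0.76 in EV and 0.87 to 1.66 in p95HER2 tumours, without overlap. Genes within 5 Mb of Col18a1, 156 with a mean of at least 2 CPM, had a median log2 fold change of 0.016. Of these 14 were called higher and 5 lower, against 5.73% higher and 4.45% lower over all genes tested.

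Col20a1, a FACIT of low level (ENSMUSG00000016356, chromosome 2, 180986535 to 181018363, plus strand, mm10), was at 0.878, 1.47 and 1.81 CPM in EV tumours (lowest, median and highest, n = 10) and 1.12, 2.18 and 3.60 CPM in p95HER2 tumours (n = 8). p95HER2 8 was the highest tumour and the groups overlapped. The log2 fold change was 0.63 with an SE of 0.20 (edgeR, adjusted p = 0.0431), and the call was lost in 13 of the 18 fits that left out 1 tumour (edgeR adjusted p up to 0.0918), without a filter and with limma voom. It shares 79 exon bases with a gene on its own strand, so reads in those bases cannot be told apart. Over all libraries that gene had 2496 counts and Col20a1 1117.

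**Figure D4:**
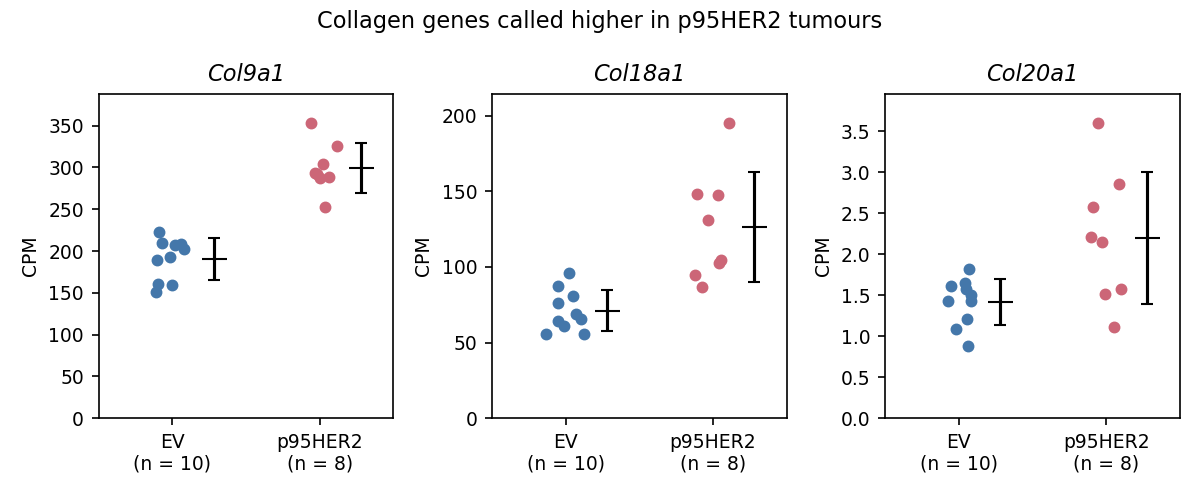
CPM of the 3 collagen genes called higher, in each of 10 EV and 8 p95HER2 tumours (points), with mean and SD; each axis starts at 0. For Col9a1 all p95HER2 tumours lie above all EV tumours, whereas for Col18a1 and Col20a1 the groups overlap.

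Type VI collagen, which links cells to the interstitial matrix, had a negative log2 fold change for all 5 genes tested, and edgeR called none of them. Among them 2 had an unadjusted edgeR p under 0.05, below 0. Over all genes tested 52.3% had a negative log2 fold change and 26.3% an unadjusted p under 0.05. Col6a1, Col6a2 and Col6a3, whose chains form its trimer, were measured at high counts. Col6a1 was at 107, 152 and 223 CPM in the EV group and 85.8, 132 and 190.4 in the p95HER2 group. Col6a2 was at 67.5, 110.2 and 147 CPM in the EV group and 52.7, 86.6 and 149 in the p95HER2 group. Col6a3 was at 88.1, 116 and 145 CPM in the EV group and 58.0, 82.6 and 163 in the p95HER2 group. p95HER2 6, which was also highest of its group in fibroblast and muscle markers, was highest for all 3, and the groups overlapped. Their log2 fold changes were -0.38 with an SE of 0.17 (edgeR, adjusted p = 0.176), -0.34 with an SE of 0.19 (edgeR, adjusted p = 0.265) and -0.36 with an SE of 0.17 (edgeR, adjusted p = 0.185). Limma voom with quality weights called Col6a1 (log2 fold change -0.51, adjusted p = 0.0459) and Col6a3 (-0.49, adjusted p = 0.043) lower, and DESeq2 called none. With the fibroblast level as a covariate the 3 fold changes moved to -0.20, -0.13 and -0.21. Without p95HER2 6 alone, Col6a3 was called lower by edgeR (log2 fold change -0.54, adjusted p = 0.0126). Col6a1 and Col6a2 lie near Col18a1 on chromosome 10, at 76708792 to 76726168 and 76595762 to 76623630. Of the longer chains that can replace the third, Col6a4 and Col6a6 had means of 0.287 and 1.12 CPM in EV tumours (edgeR adjusted p = 0.482 and 0.604), and Col6a5 had 40 counts over all libraries and was not tested.

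The remaining members were not called by edgeR. Of the FACITs, Col12a1 was at 95.9 ± 16.6 CPM in the EV group and 91.5 ± 28.9 in the p95HER2 group, Col14a1 at 23.4 ± 10.2 CPM in the EV group and 17.6 ± 7.01 in the p95HER2 group and Col16a1 at 76.9 ± 7.62 CPM in the EV group and 85.3 ± 12.5 in the p95HER2 group (SD, n = 10 and 8), with edgeR adjusted p = 0.831, 0.405 and 0.219. Col22a1 was at 0.360 to 0.862 CPM in EV and 0.350 to 0.940 CPM in p95HER2 tumours (edgeR adjusted p = 0.817). Types VIII and X form short-chain networks, the former in vessel walls and the latter in growth plate cartilage. Col8a1 was at 58.7 ± 15.3 CPM in the EV group and 54.3 ± 13.8 in the p95HER2 group and Col8a2 at 68.6 ± 29.7 CPM in the EV group and 55.2 ± 11.5 in the p95HER2 group (edgeR adjusted p = 0.739 and 0.428). Col10a1 had the largest SD relative to its mean of the 36 genes tested in EV tumours, from 0.720 to 7.93 CPM, against 1.73 to 7.37 CPM in p95HER2 tumours, and its log2 fold change was 0.76 with an SE of 0.42 (edgeR, adjusted p = 0.269). Without EV 10, its highest tumour, it was called higher (log2 fold change 1.19, edgeR adjusted p = 0.0278). With the fibroblast level as a covariate Col16a1 was called higher (0.23, edgeR adjusted p = 0.0206). Col10a1 shares 18 exon bases with Nt5dc1 on the opposite strand.

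The transmembrane collagens sit in the cell membrane and can be shed. Col25a1 was at 2.49, 5.81 and 7.76 CPM in the EV group and 5.73, 7.77 and 14.6 in the p95HER2 group, with a log2 fold change of 0.57 with an SE of 0.22 (edgeR, adjusted p = 0.0984), and DESeq2 called it higher (0.57, adjusted p = 0.0474). Col13a1 was at 3.55 ± 0.902 CPM in the EV group and 3.63 ± 0.697 in the p95HER2 group and Col23a1 at 1.55 ± 0.388 CPM in the EV group and 1.53 ± 0.528 in the p95HER2 group, with edgeR adjusted p = 0.932 and 0.957. Col28a1 was at 1.05 ± 0.588 CPM in the EV group and 0.777 ± 0.268 in the p95HER2 group (edgeR adjusted p = 0.423). Col19a1 and Col26a1 had 19 and 35 counts over all libraries and were not tested.

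Proportions between chains of the same trimer or fibril were compared in 8 ratios. The log2 ratio of 2 chains in a tumour was compared between the groups by exact permutation of the tumours (two-sided, 43758 assignments), and none of the 8 passed. The ratio of Col1a1 to Col1a2 was 0.56 ± 0.17 in EV and 0.68 ± 0.17 in p95HER2 tumours, a difference of 0.12 (exact permutation p = 0.157, BH-adjusted 0.492). That of Col1a1 to Col3a1 differed by 0.22 (exact permutation p = 0.0571, BH-adjusted 0.457), with 7 of 8 p95HER2 tumours above the EV median, and was the closest to the threshold before adjustment. For Col4a1 to Col4a2 the ratio was 0.73 ± 0.084 and 0.73 ± 0.061. The ratio of Col4a1 to Col1a1, basement membrane against fibril, was -2.07 ± 0.46 and -1.83 ± 0.36, a difference of 0.24 (exact permutation p = 0.246, BH-adjusted 0.492). The others, Col5a1 to Col5a2, Col5a1 to Col1a1, Col6a1 to Col6a2 and Col6a3 to Col6a1, differed by -0.028 to 0.10. A p that misses the threshold does not show that the ratios were equal.

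Within each genotype Col1a1 varied from tumour to tumour with Col1a2, Col3a1 and fibroblast markers, and Col4a1 with Col4a2 and endothelial markers. For this, 6 relations of log2(CPM + 0.5) were computed in EV and in p95HER2 tumours apart, 12 in all. Col1a1 and Col1a2 gave r = 0.93 (permutation p = 0.00016, BH-adjusted 0.00048) and rho = 0.94 (permutation p = 0.00021, BH-adjusted 0.00119) in EV tumours and r = 0.97 (exact permutation p = 4.96e-05, BH-adjusted 0.000198) and rho = 0.98 (exact permutation p = 0.000397, BH-adjusted 0.00119) in p95HER2 tumours. For Col1a1 and Col3a1 r was 0.85 and rho 0.84 in EV (permutation, BH-adjusted p = 0.0026 and 0.00577) and r was 0.90 and rho 0.95 in p95HER2 tumours (exact permutation, BH-adjusted p = 0.00238 and 0.00228). Col4a1 and Col4a2, the head-to-head pair, gave r = 0.99 (permutation p = 1e-05, BH-adjusted 0.00012) and rho = 1 (permutation p = 1e-05, BH-adjusted 0.00012) in EV tumours, where the permutation p is the smallest that 100000 resamples can give, and r = 0.98 (exact permutation p = 0.000248, BH-adjusted 0.000496) and rho = 0.90 (exact permutation p = 0.00456, BH-adjusted 0.00608) in p95HER2 tumours. Across classes the relation did not pass: Col1a1 and Col4a1 gave r = 0.32 (permutation p = 0.369, BH-adjusted 0.369) and rho = 0.47 (permutation p = 0.178, BH-adjusted 0.178) in EV tumours and r = 0.46 (exact permutation p = 0.251, BH-adjusted 0.273) and rho = 0.60 (exact permutation p = 0.132, BH-adjusted 0.144) in p95HER2 tumours.

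The fibroblast level, the mean log2(CPM + 0.5) of 14 measured markers that hold no collagen, was 3.67 to 4.47 in EV and 3.66 to 4.40 in p95HER2 tumours, and its summed level 286 to 465 and 279 to 413 CPM. These markers do hold other matrix genes: Dcn, Lum and Dpt are also in the list of fibril-associated proteins below, and Fbln1 in that of basement membrane partners. EV 9 and p95HER2 6 were the highest of their groups in fibroblast level, as in Col1a1, and both were also the highest in skeletal muscle level. The lowest EV tumour was EV 1 for Col1a1 and for muscle level, and EV 3 for fibroblast level. In the p95HER2 group the lowest was p95HER2 1 for Col1a1, p95HER2 4 for muscle level and p95HER2 7 for fibroblast level. The relation of Col1a1 to muscle level was not tested. Col1a1 followed the fibroblast level with r = 0.87 (permutation p = 0.00138, BH-adjusted 0.00207) and rho = 0.87 (permutation p = 0.00221, BH-adjusted 0.00379) in EV tumours and r = 0.95 (exact permutation p = 0.000223, BH-adjusted 0.000496) and rho = 0.95 (exact permutation p = 0.00114, BH-adjusted 0.00228) in p95HER2 tumours. The endothelial level over 13 markers was 3.26 to 4.07 in EV and 3.32 to 3.93 in p95HER2 tumours, and Col4a1 followed it with r = 0.97 (permutation p = 4e-05, BH-adjusted 0.000198) and rho = 0.93 (permutation p = 0.0003, BH-adjusted 0.00119) in EV tumours and r = 0.91 (exact permutation p = 0.00107, BH-adjusted 0.00183) and rho = 0.88 (exact permutation p = 0.00724, BH-adjusted 0.00869) in p95HER2 tumours. In the EV group the level of pericyte and smooth muscle markers had the same lowest tumour (EV 4) and highest tumour (EV 8) as Col4a1 and the endothelial level. Among p95HER2 tumours that level was highest in p95HER2 6, and Col4a1 in p95HER2 8. The relation of Col4a1 to these markers was not tested. Left without the 2 tumours farthest from the median of x, the 10 relations that passed had r from 0.61 (Col1a1 with Col3a1 in EV tumours) to 0.99 (Col4a1 with Col4a2 in EV tumours). All values of a tumour share its library and scaling. Of the fibroblast markers Scara5 rose and none fell, and no endothelial marker was called (edgeR).

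**Figure D5:**
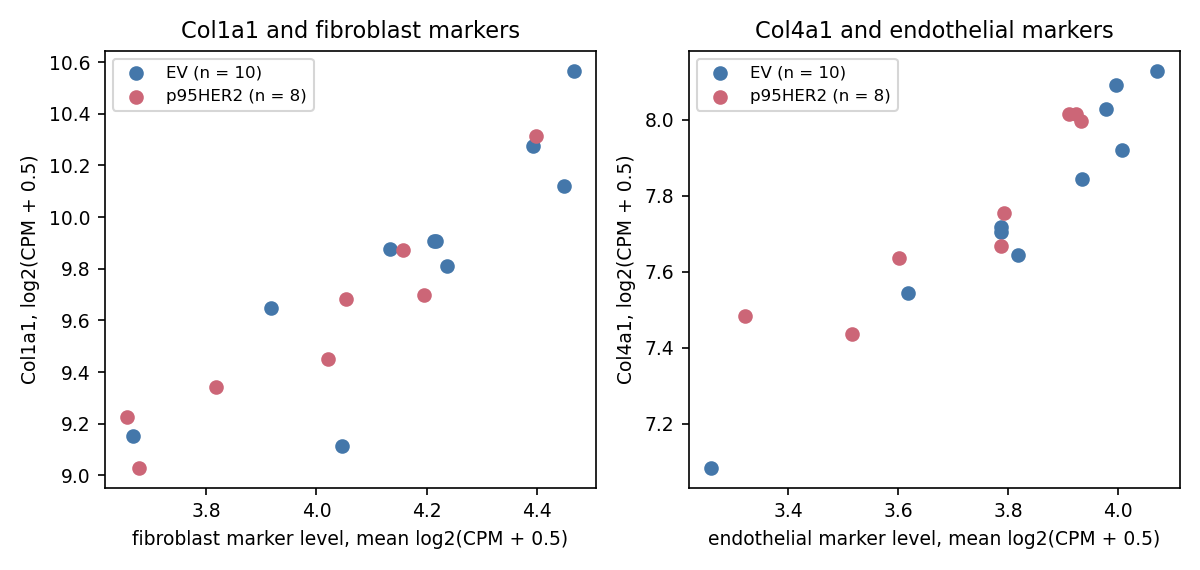
Left, Col1a1 against the fibroblast marker level, and right, Col4a1 against the endothelial marker level, both as log2(CPM + 0.5), 1 point per tumour, coloured by genotype. In both panels the points rise together in EV and in p95HER2 tumours.

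For the cartilage collagens 4 further relations in each genotype were computed; they were added after the data were seen and adjusted over their own 8. Col1a1 and Col2a1 gave r = 0.50 (permutation p = 0.137, BH-adjusted 0.365) and rho = 0.33 (permutation p = 0.348, BH-adjusted 0.685) in EV tumours and r = 0.18 (exact permutation p = 0.663, BH-adjusted 0.763) and rho = 0.024 (exact permutation p = 0.977, BH-adjusted 0.977) in p95HER2 tumours. Col2a1 and Col11a1 gave r = 0.78 (permutation p = 0.00564, BH-adjusted 0.0451) and rho = 0.66 (permutation p = 0.0429, BH-adjusted 0.343) in EV tumours, with r = 0.65 without EV 1 and EV 7, and r = 0.46 (exact permutation p = 0.24, BH-adjusted 0.481) and rho = 0.60 (exact permutation p = 0.132, BH-adjusted 0.353) in p95HER2 tumours. Neither Col9a1 nor Sox9 passed with Col2a1 in either genotype (permutation, BH-adjusted p from 0.281 to 0.763 for r).

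Genes that modify, process, bind and degrade collagen were taken from 6 lists, whose counts stand against 10.2% called over all genes tested, 5.73% higher and 4.45% lower. In the counts of these lists, rose and fell stand for called higher and called lower. Of 20 genes that modify and fold the chains, 2 rose and none fell, a share close to that of all genes (median log2 fold change 0.062). P4hb, the shared subunit of the prolyl hydroxylases that stabilise the triple helix, went from 1260.2 ± 60.3 to 1373 ± 54.1 CPM, and P3h4, a partner of lysyl hydroxylation, from 26.1 ± 2.55 to 30.3 ± 2.96 CPM (edgeR adjusted p = 0.0365 and 0.0403). Serpinh1, the collagen chaperone HSP47, named outside the rule, was at 684 ± 48.8 CPM in the EV group and 636 ± 141 in the p95HER2 group (edgeR adjusted p = 0.521). Of 13 tested genes of propeptide removal and cross-linking, 2 rose and none fell. Bmp1, the protease that cuts the C-terminal propeptide off fibrillar procollagens, was at 81.8, 97.0 and 109 CPM in the EV group and 114, 119 and 148 in the p95HER2 group. Its groups did not overlap, which held for 0.677% of all genes tested in the direction higher. Its log2 fold change was 0.33 with an SE of 0.060 (edgeR, adjusted p = 0.00177). Loxl4, a cross-linking lysyl oxidase, rose from 8.83 ± 1.60 to 12.8 ± 2.49 CPM (edgeR adjusted p = 0.00834).

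Of 17 proteins that associate with fibrils 2 rose and 2 fell, with a median of -0.30. Fn1, encoding fibronectin, rose from 781 ± 191 to 1105 ± 156 CPM, and Prelp, a leucine-rich repeat proteoglycan that anchors basement membranes to collagen, from 74.6 ± 11.3 to 113 ± 18.6 CPM (edgeR adjusted p = 0.0259 and 0.00153). Aspn and Postn, encoding asporin and periostin, both secreted by stromal cells and binding to type I collagen, fell from 27.2 ± 4.62 to 17.4 ± 4.97 CPM and from 431 ± 113 to 263 ± 56.2 CPM (edgeR adjusted p = 0.0106 and 0.011). Among 13 basement membrane partners 5 rose and 1 fell. Laminin chains made up 4 of the 5: Lamb1 rose from 206 ± 11.2 to 242 ± 15.2 CPM, Lamc1 from 333 ± 21.4 to 379 ± 19.9 CPM and Lamb2 from 67.1 ± 5.75 to 75.3 ± 4.40 CPM (edgeR adjusted p = 0.00198, 0.00947 and 0.0394), and 1 further chain. Agrn, encoding the proteoglycan agrin, rose from 299 ± 27.3 to 345 ± 17.0 CPM, and Fbln2, encoding fibulin 2, fell from 229.6 ± 42.7 to 174 ± 24.8 CPM (edgeR adjusted p = 0.0154 and 0.0255). Nid1 and Hspg2, which link laminin to type IV collagen and were named outside the rule, had log2 fold changes of -0.086 and -0.013 (edgeR adjusted p = 0.728 and 0.969).

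Of 9 tested collagen receptors 1 rose and 1 fell. Ddr2, a receptor tyrosine kinase for fibrillar collagen, rose from 36.7 ± 10.96 to 59.1 ± 10.6 CPM, with a log2 fold change of 0.69 with an SE of 0.16 (edgeR, adjusted p = 0.0128). Lair1, an inhibitory collagen receptor of leukocytes, fell from 12.1 ± 4.53 to 7.26 ± 1.66 CPM (edgeR adjusted p = 0.0288). Levels of macrophage markers, as the mean log2(CPM + 0.5), were 5.17 to 6.46 in EV and 4.62 to 5.75 in p95HER2 tumours, with 6 of 10 called lower, and their part in the fall of Lair1 was not tested. Of 9 genes of collagen degradation and its inhibitors 3 rose and none fell, with a median of 0.29. Mmp2, which encodes a gelatinase that also cuts type IV collagen, was at 171, 251 and 346 CPM in the EV group and 347, 420.3 and 472 in the p95HER2 group. Its groups did not overlap either, against the same 0.677% of all genes tested. The log2 fold change of Mmp2 was 0.71 with an SE of 0.12 (edgeR, adjusted p = 0.00182). Mmp13, which encodes a collagenase, rose from 5.20 ± 2.55 to 16.7 ± 7.75 CPM (edgeR adjusted p = 0.00302). Timp2, whose product inhibits metalloproteinases and helps to activate pro-MMP2, went from 428 ± 87.1 to 614 ± 82.1 CPM (edgeR adjusted p = 0.00692). Mmp14, which encodes a collagenase on the cell membrane and was named outside the rule, did not pass (397 ± 34.9 CPM in the EV group and 450.3 ± 38.6 in the p95HER2 group, edgeR adjusted p = 0.0514).

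Facts of the series as a whole bear on these values. Libraries held 35030920 to 38464541 counts in the EV group and 32686558 to 34804640 in the p95HER2 group. Neither these totals nor the tumours' tag numbers overlapped between the groups, so an effect of handling and one of genotype cannot be told apart. All 11 epithelial markers were measured, with a summed level of 2187 to 3507 CPM in the EV group and 2264 to 2835 CPM in the p95HER2 group. Among them Krt7 rose and Krt19 fell (log2 fold changes 1.03 and -1.20, edgeR adjusted p = 0.0426 and 0.0018). The summed level of 11 skeletal muscle genes ran from 121 to 6339 CPM in the EV group and from 359 to 3228 CPM in the p95HER2 group. None of them was called (edgeR), and their median log2 fold change was -1.06. EV 1 stood apart with a muscle level of 3.15, against an EV median of 7.97. That tumour was also the highest of all in keratinocyte level (4.14) and adipocyte level (3.37). Of the adipocyte, macrophage, T cell, Schwann cell and keratinocyte markers 6 of 7, 6 of 10, 3 of 9, 2 of 7 and 2 of 4 measured were called lower and none higher (edgeR), and their part in the collagen results was not tested.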

How the data were processed

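The deposited table holds raw counts for each Ensembl gene and tumour, not normalized by the authors. STAR 2.5, HTSeq 0.6.1 and mm10 are named per the submitters' processing notes; the annotation release and strand option are not stated there, so reads of overlapping genes are uncertain. Groups follow the genotype label, and replicates are numbered in accession order. Symbols, biotypes, positions (1-based) and exon lengths came from a GENCODE annotation of mm10. Tests used edgeR 4.0.16 in R 4.3.3 on all 17123 genes kept by filterByExpr (minimum count 10, minimum total 15), with TMM scaling, a robust quasi-likelihood F-test and Benjamini-Hochberg (BH) adjustment over these genes at 0.05. CPM use TMM-scaled library sizes, and SDs are over tumours. The SE of a log2 fold change was derived from the F-test, as its absolute value divided by the square root of F. Chain ratios used counts + 0.5. The test was tested on simulated data. Members, classes and lists were chosen with earlier results of these data known. Members with per-tumour values are those called, the 6 highest per length in each class and their partner chains; of each other list, at most 4 called genes per direction are named. Others are said to be outside the rule where named. Alternatives were other scalings and filters, DESeq2 1.42.0, limma 3.58.1, marker levels as covariates and tumours left out.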

Additional observations from a re-analysis of the deposited data

Results flagged for a closer look

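A single tumour lay far from the others of its genotype for 6 collagen genes, among 72 combinations of gene and genotype examined with Dixon's criterion, which flags about 5% by chance. In p95HER2 6, Col6a3 was at 163 CPM, with the next at 101 CPM, and Col5a3 at 42.2 CPM, with the next at 26.4 CPM. In p95HER2 4, Col4a5 was at 157 CPM, with the next at 111 CPM, and Col25a1 at 14.6 CPM, with the next at 9.57 CPM. In EV 6, Col27a1 was at 9.59 CPM, with the next at 5.86 CPM. In EV 10, Col10a1 was at 7.93 CPM, with the next at 3.02 CPM.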

How the results depend on the processing

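The rises of Col9a1 and Col18a1 kept their direction and their call in all 28 alternative fits. That of Col20a1 was lost without a filter (log2 fold change 0.63, edgeR adjusted p = 0.0569), with limma voom (0.56, adjusted p = 0.0741) and without EV 1 and p95HER2 4 (0.66, edgeR adjusted p = 0.0562). The number of collagen genes called higher was 2 to 4, and of those called lower 2 with limma voom, 0 to 1 with a tumour left out and 0 otherwise. Among the 25 of 36 tested genes whose fold changes were recomputed, signs turned for 4 that no fit called. With the fibroblast level as a covariate these were Col4a1 (0.082), Col4a2 (0.080), Col5a1 (0.053) and Col8a1 (0.12). With the endothelial level they were Col4a1 (0.099) and Col4a2 (0.12), and with the skeletal muscle level Col8a1 (0.058); the cause was not tested. With each tumour left out, Col4a1 ran from -0.093 to 0.011 and Col4a2 from -0.12 to 0.0086. The differences in log2 chain ratio ran from -0.011 to 0.028 for Col4a1 to Col4a2, -0.047 to 0.018 for Col6a1 to Col6a2 and -0.073 to 0.015 for Col6a3 to Col6a1, the last 0.030 without EV 1 and p95HER2 4. No ratio was called under any alternative, and no planned within-genotype relation changed its call under RLE scaling or a pseudocount of 1. Levels per length moved by more than 1 SD with the longest transcript for 9 of 28 genes, among them Col1a2 and Col3a1. The 6 collagen genes that did not pass the filter were tested without it, and none was called.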
